A study of Mus musculus with 12 samples.

Results

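The data are the 998 genes of the authors’ deposited day 8 mRNA table, which gives 1 ratio per gene between the day 8 TGFβ library and the day 8 vehicle library. All of its rows are described, 998 of the 2091 genes listed in any of the 3 mRNA tables of the study. The cells were AKR-2B, an established mouse fibroblast line, cultured in soft agar, a gel that gives cells no surface to attach to. The 2 day 8 mRNA libraries came from soft agar cultures kept for 8 days, 1 with 25 ng/mL TGFβ and 1 with vehicle. The tables of days 2 and 4, each from its own TGFβ and vehicle library at the same dose, and the 2 day 8 miRNA libraries were used for comparison. Each group had 1 library, so no ratio has a replicate check and none is tested. The cultures were bulk samples of a single cell line, in which fewer cells of a kind and less RNA per cell cannot be told apart.

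The header of the day 8 table names no direction. The ratios were taken as TGFβ over vehicle, the reading that puts 4 of the 5 listed TGFβ targets and pathway regulators above 1. The same reading puts Acta2, Mylk and Myl9, genes often used as myofibroblast markers, below 1. The direction was not tested. Every statement below that a gene was higher or lower with TGFβ rests on that reading and would invert if the table ran the other way.

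TGFβ is a secreted cytokine whose receptor kinases phosphorylate SMAD transcription factors, and it also feeds into MAP kinase and AP-1 signalling. In fibroblasts it is known for inducing extracellular matrix, proteases and matricellular growth factors, and AKR-2B cells are a classical model in which it permits growth in soft agar. BMPs are related ligands that signal through a separate set of SMADs and induce the ID genes. Matrix metalloproteinases cut collagens, elastin and proteoglycans, and many of their promoters carry AP-1 elements near the start site.

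All 998 ratios were quotients of 2 odd whole numbers, the form of whole reads plus 0.5 in each library, with no scaling for library depth. The smallest such pair gives the fewest reads that can lie behind a ratio, called its implied reads below. The true reads may be a larger odd multiple, and for 978 of the 998 genes fewer than 0.01 pairs of that size were expected to match the printed digits by accident. Among the exceptions are A130040M12Rik, Timp3, Spp1 and Aqp1, whose reads may be larger still. The last 3 had 0.757, 0.107 and 0.104 accidental pairs expected. Values in parentheses after a ratio are exact conditional binomial 95% intervals at the implied reads. They cover counting error only, leave out depth, and are the widest the form allows. Where 1 library has the form of 0 reads, the fold was bounded by setting that library to 3 counts.

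The 2 sides of the table were equally long and unequally deep. The table held 499 genes above 1 and 499 below 1, 50% of all rows on each side. With at least 20 implied reads in 1 library there were 194 genes above 1 and 228 below 1, so that 46.0% of the 422 such genes lay above and 54.0% below, and their median log2 ratio was -2.96. Counts for each gene group below are to be read against these shares. Each group is a chosen list and does not hold every gene of its kind. The median implied reads in the fuller library were 7 above 1 and 15 below 1. Above 1, 302 genes had the form of 0 reads in 1 library, and below 1, 263 did. The lowest ratio above 1 was 5, shared by 108 genes with 2 reads against 0, and the highest below 1 was 0.143, shared by 4 genes with 0 reads against 3. Both ends of the table thus lie among genes of a few reads. No ratio lies between 0.143 and 5. A median log2 ratio over genes of both sides therefore takes the side with more genes and is no common shift. This holds for the group medians below too. For 230 genes above 1 and 120 below 1, all with at most 5 implied reads, the counting interval held 1. Among genes with at least 20 reads and reads in both libraries, 174 above 1 and 201 below 1, every interval lay beyond 2-fold. This follows largely from the cut of the table at 5 and 0.143, leaves out depth, and is no support for any gene. The median fold over all with at least 20 reads was 9.53 above 1 and 14.2 below 1. To set aside ratios of a few reads, the statements on named genes use those with at least 20 implied reads unless said otherwise.

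**Figure D1:**
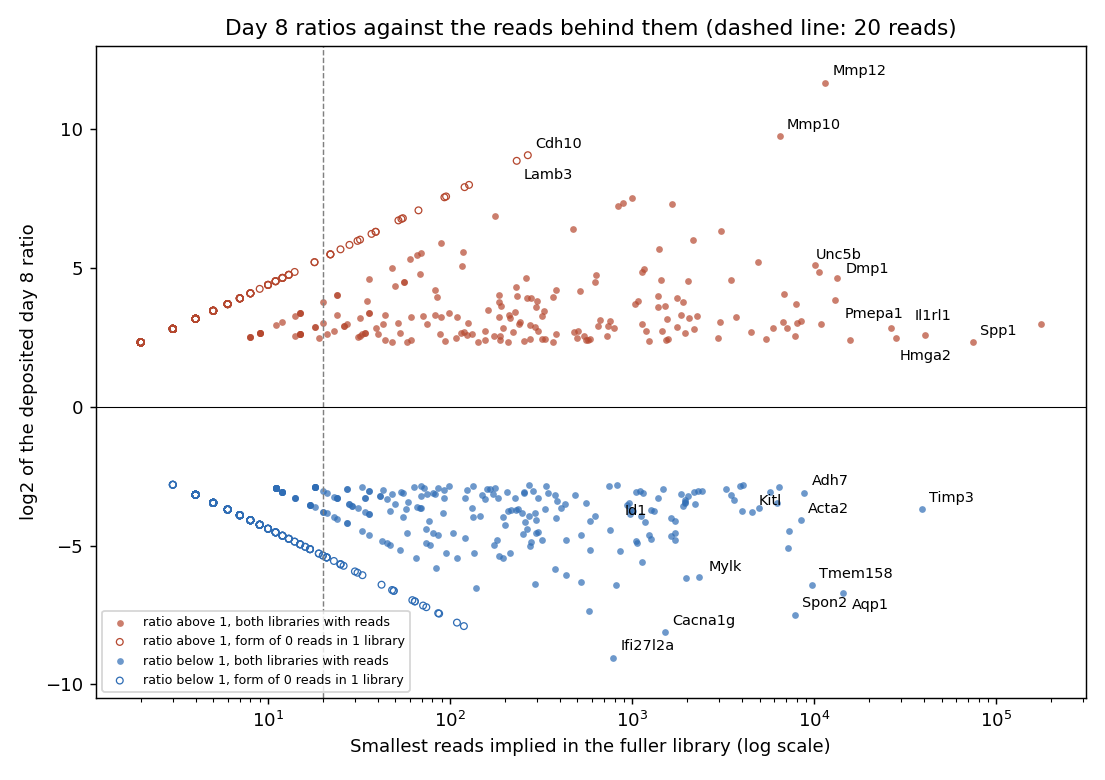
Each point is 1 of the 998 genes of the day 8 table: the x axis gives the smallest reads implied in the fuller library (log scale) and the y axis the log2 of the deposited ratio, read as TGFβ over vehicle. Open circles have the form of 0 reads in 1 library and lie on 2 straight lines, since their ratio follows from 1 count alone; 422 genes lie at or right of the dashed line at 20 reads.

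Genes of 886 rows were protein-coding by their RefSeq match, 66 were long non-coding, 17 were miRNA precursors, 13 pseudogenes, 7 snoRNAs and 3 RNase P-type RNAs, and 6 symbols matched nothing. None of the miRNA precursor or snoRNA genes reached 20 reads. The gene with the most implied reads, A130040M12Rik with 174480 against 21986 and a ratio of 7.94 in the authors’ deposited table, was one of the unmatched symbols. Of the 422 genes with at least 20 reads, 142 overlap another annotated gene on the genome, and the library kit named in the labels does not mark strand, so reads of the partners cannot be told apart. Of the genes described, those that overlap a protein-coding gene are Timp3 (with Syn3), Cp (Hps3), Igfbp7 (Polr2b), Aspn and Ogn (both Cenpp), Pltp (Ctsa), Cxcr6 (Fyco1), Ccl3 (Ccl4), Fgf1 (Arhgap26), Fstl3 (Prss57), F2rl2 (Iqgap2), Dock8 (Ndufb4b), Ifi27l2a (Ifi27), Gm11517 (Cbx1), and, with predicted genes, Gfra1 and Slc24a3. Many more overlap long non-coding genes, among them Hmga2, Mylk, Deptor, Adam12, Ctgf, Tnc, Has2, Lamb3, Cdh6, Cdh10, Adh7, Col27a1, Hbegf, Hgf, Fst, Cacna1g and Ptgis.

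Sequences of 4 metalloproteinase promoters are shown first, since 3 of these genes adjoin each other and all 4 lay far above 1. They are RefSeq windows of the mouse build GRCm38.p6, running 250 bases before to 50 after an annotated start, on the gene’s own strand, and the capitals mark the AP-1 motif TGACTCA or its reverse complement. The windows are chr9:7502092-7502391 (plus strand) for Mmp10, chr9:7272264-7272563 (plus) for Mmp13, chr9:7347124-7347423 (plus) for the second of 2 annotated starts of Mmp12, and chr9:7387977-7388276 (minus) for Mmp1b.
Mmp10: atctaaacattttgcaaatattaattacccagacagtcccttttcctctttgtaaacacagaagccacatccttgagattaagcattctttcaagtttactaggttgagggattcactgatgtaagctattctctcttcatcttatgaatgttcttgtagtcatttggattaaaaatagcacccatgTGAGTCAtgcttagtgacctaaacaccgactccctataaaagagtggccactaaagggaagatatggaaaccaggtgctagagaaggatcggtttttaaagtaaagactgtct
Mmp13: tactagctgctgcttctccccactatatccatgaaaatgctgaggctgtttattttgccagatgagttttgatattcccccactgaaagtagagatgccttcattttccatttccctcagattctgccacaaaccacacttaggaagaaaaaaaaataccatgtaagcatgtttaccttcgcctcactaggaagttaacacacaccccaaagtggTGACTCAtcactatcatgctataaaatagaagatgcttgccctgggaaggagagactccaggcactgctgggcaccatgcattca
Mmp12: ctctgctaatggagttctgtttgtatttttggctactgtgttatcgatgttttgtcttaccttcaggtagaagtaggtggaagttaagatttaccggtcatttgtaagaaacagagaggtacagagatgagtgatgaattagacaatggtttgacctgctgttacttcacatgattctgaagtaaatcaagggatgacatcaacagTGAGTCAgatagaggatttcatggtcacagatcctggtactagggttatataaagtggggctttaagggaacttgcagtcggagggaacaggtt
Mmp1b: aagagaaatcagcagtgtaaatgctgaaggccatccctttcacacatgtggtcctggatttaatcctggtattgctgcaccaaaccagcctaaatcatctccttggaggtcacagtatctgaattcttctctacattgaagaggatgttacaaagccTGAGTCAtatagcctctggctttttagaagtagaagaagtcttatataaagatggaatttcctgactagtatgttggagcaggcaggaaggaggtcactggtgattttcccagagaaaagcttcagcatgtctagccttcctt
The first base of the motif lies 63, 35, 44 and 93 bases before the start in the windows of Mmp10, Mmp13, Mmp12 and Mmp1b. The first annotated start of Mmp12 has no match in its window. Of the 6 genes of the metalloproteinase group above 1, 5 had a window, and all 5 (Adam19 being the other one) held the motif in at least 1 window. By comparison the motif, searched on both strands, was in a window of 5.95% of 27025 genes, of 14.8% (21 of 142) of the day 8 genes above 1 and of 7.59% (12 of 158) of those below 1, each with at least 20 reads. The SMAD palindrome GTCTAGAC was in 0.248% of all genes’ windows, in 1 of the 142 and in 0 of the 158, and the element TGACGTCA in 2.03%, 2.82% and 1.90%. These are matches of letters in a short window, not binding sites, and no match says only that the letters are not in this window.

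Matrix-degrading metalloproteinases held the largest ratios of the table. The group, with its inhibitors and the ADAMTS-like proteins, had 9 genes above 1 and 5 below, and 6 and 4 with at least 20 reads. Mmp12, the elastin-cutting macrophage elastase, had 11458 reads with TGFβ against 3 with vehicle, a ratio of 3274 in the authors’ deposited table (1307 to 18523). Mmp10, stromelysin-type and an activator of other metalloproteinases, had 6465 reads with TGFβ against 7 with vehicle, a ratio of 862 in the authors’ deposited table (448 to 2298). Mmp13, a collagenase, had 2168 reads with TGFβ against 33 with vehicle, a ratio of 64.7 in the authors’ deposited table (46.6 to 95.7). These 3 secreted enzymes had few reads in the vehicle library and many in the TGFβ library. Mmp1b, a rodent counterpart of interstitial collagenase, had 56 reads with TGFβ against 2 with vehicle, a ratio of 22.6 in the authors’ deposited table (7.398 to 237). The membrane-anchored disintegrin metalloproteinases were higher by less: Adam12 had 6717 reads with TGFβ against 815 with vehicle, a ratio of 8.24 in the authors’ deposited table (7.66 to 8.87), and Adam19 had 53 reads with TGFβ against 8 with vehicle, a ratio of 6.29 in the authors’ deposited table (3.13 to 16.1).

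Below 1 the group held an inhibitor, a metalloproteinase and ADAMTS-like proteins. Timp3, which binds matrix and inhibits metalloproteinases, had 3038 reads with TGFβ against 38903 with vehicle, 12.8-fold lower in the authors’ deposited table (12.3 to 13.3). It was the gene with the most implied reads below 1. Mmp16, a membrane-bound metalloproteinase, had 195 reads with TGFβ against 2199 with vehicle, 11.3-fold lower in the authors’ deposited table (9.74 to 13.1) and was listed at day 8 only. Adamtsl4 and Adamtsl1, secreted relatives of the ADAMTS enzymes that lack the protease domain, were lower by 11.9-fold and 17.8-fold by the authors’ deposited table, with 159 against 1902 and 14 against 258 implied reads with TGFβ against vehicle. Metalloproteinase genes themselves thus stood on both sides of 1. Serine proteases and serpins had 10 genes above 1 and 5 below in all, and 3 and 2 with at least 20 reads. Plau, the urokinase that activates plasminogen, had 1166 reads with TGFβ against 37 with vehicle, a ratio of 31.1 in the authors’ deposited table (22.7 to 44.99). Prss46, a serine protease, had 120 reads with TGFβ against 0 with vehicle, at least 40-fold higher, and the serpin Serpina3h, which belongs to a family of near-identical copies, had 55 reads with TGFβ against 0 with vehicle, at least 18.3-fold higher. Below 1, the elastase inhibitor Serpinb1a had 9 reads with TGFβ against 81 with vehicle, 8.58-fold lower in the authors’ deposited table (4.51 to 20.4).

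Structural matrix genes lay on both sides. Collagens had 5 genes above 1 and 3 below in all, and 3 and 2 with at least 20 reads. Col27a1, a fibrillar collagen, had 651 reads with TGFβ against 87 with vehicle, a ratio of 7.45 in the authors’ deposited table (5.97 to 9.47). Col28a1, a collagen with von Willebrand domains, had 177 reads with TGFβ against 1 with vehicle, a ratio of 118 in the authors’ deposited table (31.4 to 7030.1), and Col7a1, the anchoring fibril collagen, had 56 reads with TGFβ against 2 with vehicle, a ratio of 22.6 in the authors’ deposited table (7.398 to 237). For Col7a1 this is the smallest pair of that ratio, and the true reads may be larger. At day 4 its implied reads were 2503 with TGFβ against 134 with vehicle. The abundant Col6a2, a chain of microfibrillar collagen, had 866 reads with TGFβ against 6427 with vehicle, 7.42-fold lower in the authors’ deposited table (6.91 to 7.98), and the basement membrane collagen Col4a6 had 53 reads with TGFβ against 485 with vehicle, 9.07-fold lower in the authors’ deposited table (6.88 to 12.4). The fibrillar collagens most typical of fibroblasts, Col1a1, Col1a2 and Col3a1, were not in the table, which does not show them unchanged.

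Other matrix and matricellular genes numbered 9 above 1 and 12 below in all, and 7 and 10 with at least 20 reads, whose median log2 ratio was -3.55. Those above 1 were mostly secreted modulators of adhesion. Spp1, osteopontin, had 73890 reads with TGFβ against 14606 with vehicle, the most of any gene matched to an annotation, at a ratio of 5.06 in the authors’ deposited table (4.97 to 5.15). Ctgf, a matricellular protein and TGFβ target, had 8466 reads with TGFβ against 993 with vehicle, a ratio of 8.52 in the authors’ deposited table (7.98 to 9.11). Fbln2, the elastic fibre protein fibulin, had 7917 reads with TGFβ against 608 with vehicle, a ratio of 13.01 in the authors’ deposited table (11.99 to 14.2), and the matricellular protein Wisp1 had 3024 reads with TGFβ against 364 with vehicle, a ratio of 8.298 in the authors’ deposited table (7.45 to 9.29). Lrrc15, a leucine-rich repeat membrane protein of activated fibroblasts, had 1652 reads with TGFβ against 10 with vehicle, a ratio of 157 in the authors’ deposited table (89.6 to 345). Tnc, tenascin, and Has2, which makes hyaluronan, had ratios of 8.95 and 15.6 in the authors’ deposited table, from 1552 against 173 and 365 against 23 implied reads with TGFβ against vehicle.

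Below 1 the same group held small leucine-rich proteoglycans and microfibril proteins. Aspn, asporin, had 209 reads with TGFβ against 7206 with vehicle, 34.4-fold lower in the authors’ deposited table (30.05 to 39.8). Ogn, osteoglycin, had 62 reads with TGFβ against 1721 with vehicle, 27.5-fold lower in the authors’ deposited table (21.5 to 36.4), and it lies beside Aspn on chromosome 13. Podn, podocan, had 35 reads with TGFβ against 1066 with vehicle, 30.04-fold lower in the authors’ deposited table (21.8 to 43.96), and Prelp had 0 reads with TGFβ against 109 with vehicle, at least 36.3-fold lower. All 4 listed small leucine-rich proteoglycans with at least 20 reads were thus at least 27.5-fold lower by ratio. Spon2, a secreted spondin, had 43 reads with TGFβ against 7812 with vehicle, 179.6-fold lower in the authors’ deposited table (135 to 251). Nov, a matricellular relative of Ctgf on the opposite side of 1, had 36 reads with TGFβ against 1042 with vehicle, 28.6-fold lower in the authors’ deposited table (20.8 to 41.6). The microfibril proteins Mfap2 and Mfap4 were lower by 11.7-fold and 19.2-fold by the authors’ deposited table, tenascin X (Tnxb) 21.2-fold lower and the glypican Gpc6 8.91-fold lower, with 79 against 932, 10 against 201, 12 against 265 and 207 against 1848 implied reads with TGFβ against vehicle.

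Several genes known from bone and tooth matrix were listed above 1 at day 8 and in neither earlier table. Dmp1, dentin matrix protein, had 13269 reads with TGFβ against 538 with vehicle, a ratio of 24.6 in the authors’ deposited table (22.6 to 26.9). Ibsp, bone sialoprotein, had 22 reads with TGFβ against 0 with vehicle, at least 7.33-fold higher. Spp1, described above, and Dspp, dentin sialophosphoprotein, with 11 against 0 implied reads with TGFβ against vehicle, belong to the same family, and Dmp1 and Ibsp are neighbours on chromosome 5 (GRCm38 chr5:104197575-104311472). Fam20a, a partner of the kinase that phosphorylates secreted matrix proteins, had 1382 reads with TGFβ against 86 with vehicle, a ratio of 15.98 in the authors’ deposited table (12.9 to 20.2) and was likewise listed at day 8 only. These genes were placed together after their values were seen, so their common side is no result about a set. Other proteoglycans found in bone matrix lay below 1 and were listed earlier too, Ogn, given above, and Omd, osteomodulin, with 0 against 7 implied reads with TGFβ against vehicle.

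Laminins and integrins numbered 4 above 1 and 3 below in all, and 3 and 1 with at least 20 reads. Cadherins, protocadherins and junction genes numbered 10 above and 5 below in all, and 6 and 1 with at least 20 reads. Itgb3, the beta chain of the vitronectin and osteopontin receptor, had 6777 reads with TGFβ against 404 with vehicle, a ratio of 16.8 in the authors’ deposited table (15.2 to 18.6). Itga2, of the collagen and laminin receptor, had 83 reads with TGFβ against 4 with vehicle, a ratio of 18.6 in the authors’ deposited table (7.81 to 77.9), while Itga10, another collagen receptor chain, had 116 reads with TGFβ against 825 with vehicle, 7.09-fold lower in the authors’ deposited table (5.85 to 8.71). Lamb3, a laminin chain of epithelial basement membrane, had 232 reads with TGFβ against 0 with vehicle, at least 77.3-fold higher. Of the cadherins, Cdh6 had 1000 reads with TGFβ against 5 with vehicle, a ratio of 182 in the authors’ deposited table (85.4 to 617) and Cdh10 had 267 reads with TGFβ against 0 with vehicle, at least 89-fold higher. Cdh5, the endothelial cadherin, had 32 reads with TGFβ against 0 with vehicle, at least 10.7-fold higher, and Pcdh1, a protocadherin, had 264 reads with TGFβ against 17 with vehicle, a ratio of 15.1 in the authors’ deposited table (9.52 to 27.1). The desmosome plaque proteins Pkp1 and Pkp3 had 22 against 0 and 24 against 2 implied reads with TGFβ against vehicle. Cdh17, a liver and intestine cadherin, was the one of this list below 1 with at least 20 reads. It had 0 reads with TGFβ against 25 with vehicle, at least 8.33-fold lower. The list leaves out the cadherin-family genes Dchs1 and Fat4 and the desmosome-linked Ppl, which also lay below 1. They were lower by 13.2-fold, 13.1-fold and 7.30-fold in the authors’ deposited table. Dchs1 and Ppl had 17 against 231 and 13 against 98 implied reads with TGFβ against vehicle, and Fat4 had 216 with vehicle.

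The listed TGFβ targets and pathway regulators were those on which the direction was read, so their side is not a result. Hmga2, a chromatin protein of mesenchymal cells, had 28227 reads with TGFβ against 5126 with vehicle, a ratio of 5.51 in the authors’ deposited table (5.34 to 5.67), and the feedback inhibitor Pmepa1 had 13036 reads with TGFβ against 915 with vehicle, a ratio of 14.2 in the authors’ deposited table (13.3 to 15.3). With Ctgf and Adam12 they made 4 genes above 1, and Timp3 was the 1 below.

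BMP signals and ID genes lay mostly below 1, 2 above and 6 below in all and 2 and 5 with at least 20 reads, whose median log2 ratio was -3.06. Id1, an inhibitor of basic helix-loop-helix factors and a BMP target, had 96 reads with TGFβ against 1315 with vehicle, 13.6-fold lower in the authors’ deposited table (11.1 to 17.03). Id3, its relative, had 126 reads with TGFβ against 1052 with vehicle, 8.32-fold lower in the authors’ deposited table (6.93 to 10.1). Neither was in the day 2 or day 4 table. Smad9, a BMP-regulated SMAD, had 36 reads with TGFβ against 386 with vehicle, 10.6-fold lower in the authors’ deposited table (7.61 to 15.5), and Atoh8, a helix-loop-helix factor, had 1 read with TGFβ against 138 with vehicle, 92.3-fold lower in the authors’ deposited table (24.4 to 5489.7). Fst, follistatin, which binds activins and BMPs, had 283 reads with TGFβ against 2297 with vehicle, 8.104-fold lower in the authors’ deposited table (7.17 to 9.22). Its relative Fstl3 stood on the other side of 1 and had 189 reads with TGFβ against 32 with vehicle, a ratio of 5.83 in the authors’ deposited table (4.04 to 8.88), as did the BMP receptor Bmpr1b, which had 54 reads with TGFβ against 0 with vehicle, at least 18-fold higher.

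The list of growth factors and their receptors had 14 genes above 1 and 4 below in all. With at least 20 reads it had 10 and 2, whose median log2 ratio was 3.01. Vegfa, the angiogenic factor, had 5951 reads with TGFβ against 826 with vehicle, a ratio of 7.201 in the authors’ deposited table (6.698 to 7.76). Hbegf, an EGF receptor ligand, had 2259 reads with TGFβ against 231 with vehicle, a ratio of 9.76 in the authors’ deposited table (8.54 to 11.2), and Igfbp7, a secreted binding protein, had 5418 reads with TGFβ against 989 with vehicle, a ratio of 5.48 in the authors’ deposited table (5.12 to 5.87). Hgf, the ligand of Met, had 260 reads with TGFβ against 10 with vehicle, a ratio of 24.8 in the authors’ deposited table (13.9 to 54.9). The PDGF chain genes Pdgfb and Pdgfa were listed. Pdgfb had 231 against 11 implied reads with TGFβ against vehicle and a ratio of 20.1 in the authors’ deposited table. Pdgfa had 368 against 73 and a ratio of 5.01. That ratio is one of the 3 nearest to 1 above it among genes of at least 20 reads.

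Of the lower-count growth factors, Igf1 had 66 reads with TGFβ against 1 with vehicle, a ratio of 44.3 in the authors’ deposited table (11.4 to 2646). The fibroblast growth factors Fgf5 and Fgf1 had ratios of 8.22 and 15.5 in the authors’ deposited table, from 242 against 29 and 85 against 5 implied reads with TGFβ against vehicle, and Fgf1 was listed at day 8 only. Gfra1, a co-receptor for GDNF, had 1131 reads with TGFβ against 143 with vehicle, a ratio of 7.89 in the authors’ deposited table (6.64 to 9.48). On the other side, Kitl, stem cell factor, had 325 reads with TGFβ against 4521 with vehicle, 13.9-fold lower in the authors’ deposited table (12.4 to 15.6) and was absent from both earlier tables. Ptn, the heparin-binding pleiotrophin, had 0 reads with TGFβ against 48 with vehicle, at least 16-fold lower.

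Of a list of Wnt, Hedgehog and Notch signalling genes 6 lay above 1 and 3 below in all, and 3 and 1 with at least 20 reads. Lef1, the transcription factor that partners beta-catenin, had 1241 reads with TGFβ against 238 with vehicle, a ratio of 5.21 in the authors’ deposited table (4.54 to 6.02) and was listed at day 8 only. Lgr6, an R-spondin receptor, had 1074 reads with TGFβ against 76 with vehicle, a ratio of 14.05 in the authors’ deposited table (11.2 to 18.1), and Nkd2, a dishevelled-binding inhibitor of Wnt signalling, had 61 reads with TGFβ against 6 with vehicle, a ratio of 9.46 in the authors’ deposited table (4.41 to 28.8). Dkk3, a Dickkopf-family secreted protein, had 5 reads with TGFβ against 59 with vehicle, 10.8-fold lower in the authors’ deposited table (4.78 to 37.7). The list leaves out Gas1, also a Hedgehog co-receptor, the Wnt pathway gene Dixdc1 and the Notch pathway gene Neurl1b, which all lay below 1. They were lower by 13.4-fold, 9.24-fold and 14.3-fold in the authors’ deposited table, so the balance above holds for the list only. The axon guidance genes with at least 20 reads both lay above 1. Unc5b, a netrin receptor, had 10644 reads with TGFβ against 366 with vehicle, a ratio of 29.04 in the authors’ deposited table (26.2 to 32.4), and the semaphorin Sema7a, an integrin ligand, had 1906 reads with TGFβ against 138 with vehicle, a ratio of 13.8 in the authors’ deposited table (11.6 to 16.5).

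Cytokines, chemokines and their receptors had 13 genes above 1 and 6 below in all, and 6 and 3 with at least 20 reads. Il1rl1, the receptor of IL-33, had 40565 reads with TGFβ against 6715 with vehicle, a ratio of 6.04 in the authors’ deposited table (5.89 to 6.1999). Cxcr6, a chemokine receptor, had 623 reads with TGFβ against 27 with vehicle, a ratio of 22.7 in the authors’ deposited table (15.7 to 35.3). Tnfaip6, a hyaluronan-binding protein induced in inflammation, had 331 reads with TGFβ against 60 with vehicle, a ratio of 5.48 in the authors’ deposited table (4.18 to 7.39) and was listed at day 8 only. The TNF receptor family members Tnfrsf23 and Tnfrsf9 had ratios of 5.24 and 27.4 in the authors’ deposited table, and Tnfrsf14 was 7.91-fold lower. Members of this family outside the list also lay on both sides. Relt had 319 reads with TGFβ against 59 with vehicle, a ratio of 5.37 in the authors’ deposited table. Fas had 16 reads with TGFβ against 587 with vehicle, 35.6-fold lower in the authors’ deposited table. Ccl11, the eosinophil chemokine eotaxin, had 1 read with TGFβ against 45 with vehicle, 30.3-fold lower in the authors’ deposited table (7.68 to 1816) and was listed at day 8 only, while Ccl3, another chemokine, had 24 reads with TGFβ against 1 with vehicle, a ratio of 16.3 in the authors’ deposited table (3.91 to 987).

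Of a list of interferon-inducible and complement genes, 0 genes lay above 1 and 19 below, against 50% of all rows on each side, and 5 of the 19 had at least 20 reads. The list does not hold every such gene: outside it, Hc, complement component C5, lay above 1 with 6 against 0 implied reads with TGFβ against vehicle, and C1rb, a protease of the classical pathway, below 1 with 0 against 6. Ifi27l2a, a small interferon-inducible protein, had 1 read with TGFβ against 786 with vehicle, 524-fold lower in the authors’ deposited table (141 to 31084), the largest fold below 1 among genes of that depth. Ifi44 had 5 reads with TGFβ against 174 with vehicle, 31.7-fold lower in the authors’ deposited table (14.6 to 109), and Gbp7, a guanylate-binding protein, had 2 reads with TGFβ against 78 with vehicle, 31.4-fold lower in the authors’ deposited table (10.4 to 328). C1s, another protease of the classical complement pathway, had 187 reads with TGFβ against 1938 with vehicle, 10.3-fold lower in the authors’ deposited table (8.92 to 12.1). The 14 with fewer reads had 3 to 18 implied reads in the vehicle library and 0 to 2 in the TGFβ library. They include the guanylate-binding proteins Gbp3, Gbp4, Gbp6 and Gbp8, the oligoadenylate synthetase genes Oas1c, Oas2 and Oasl2, Ifit1, Mx2, Usp18 and Igtp. The interferon response element, searched as GAAANNGAAA, was in a window of Gbp7 alone of the 3 deeper genes with a window, and in 3.99% of all genes’ windows. Of day 8 genes with at least 20 reads and a window, 14 of 158 below 1 (8.86%) held it. Above 1, 8 of 142 (5.63%) did.

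Contractile genes of smooth muscle, often used as myofibroblast markers, numbered 2 above 1 and 6 below in all, and 1 and 6 with at least 20 reads, whose median log2 ratio was -4.08. Acta2, smooth muscle actin, had 501 reads with TGFβ against 8431 with vehicle, 16.8-fold lower in the authors’ deposited table (15.4 to 18.5). Mylk, myosin light chain kinase, had 33 reads with TGFβ against 2333 with vehicle, 69.7-fold lower in the authors’ deposited table (50.2 to 103), and its substrate Myl9 had 23 reads with TGFβ against 857 with vehicle, 36.5-fold lower in the authors’ deposited table (24.7 to 59.1). Synpo2, an actin-bundling protein, had 17 reads with TGFβ against 295 with vehicle, 16.9-fold lower in the authors’ deposited table (10.7 to 30.2), and Mrvi1, a substrate of cGMP-dependent kinase, had 0 reads with TGFβ against 119 with vehicle, at least 39.7-fold lower. Actg2, enteric smooth muscle actin, had few reads and had 2 reads with TGFβ against 28 with vehicle, 11.4-fold lower in the authors’ deposited table (3.53 to 121). Mcam, an adhesion molecule of pericytes and smooth muscle, had 174 reads with TGFβ against 29 with vehicle, a ratio of 5.92 in the authors’ deposited table (4.03 to 9.22) and was listed at day 8 only. Of the 5 genes below 1 with a promoter window, Myl9 alone held a CArG box, the element of serum response factor, against 1.81% of all genes. Of day 8 genes with at least 20 reads and a window, 5 of 158 below 1 (3.16%) held the box. Above 1, 2 of 142 (1.41%) did. The window of Myl9 is shown with the box in capitals (RefSeq, GRCm38.p6, chr2:156775214-156775513, plus strand).
Myl9: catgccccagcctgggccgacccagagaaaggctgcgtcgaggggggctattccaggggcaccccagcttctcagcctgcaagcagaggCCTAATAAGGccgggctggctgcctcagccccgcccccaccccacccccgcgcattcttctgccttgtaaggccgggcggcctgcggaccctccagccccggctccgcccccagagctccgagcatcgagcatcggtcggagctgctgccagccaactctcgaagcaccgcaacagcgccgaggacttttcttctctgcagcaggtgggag

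Striated muscle genes lay on both sides, 6 above 1 and 4 below in all and 3 and 1 with at least 20 reads. Tnnt2, cardiac troponin T, had 836 reads with TGFβ against 5 with vehicle, a ratio of 152 in the authors’ deposited table (71.4 to 516). Ankrd1, a cardiac ankyrin-repeat protein, had 116 reads with TGFβ against 3 with vehicle, a ratio of 33.3 in the authors’ deposited table (12.9 to 190.2). Tnni1, slow skeletal troponin I, had 31 reads with TGFβ against 0 with vehicle, at least 10.3-fold higher. Tnnt2 and Tnni1 are neighbours, with the plakophilin Pkp1, on chromosome 1 (GRCm38 chr1:135783033-135919207), and all 3 lay above 1. Tnnt1, the slow skeletal troponin T, had 4 reads with TGFβ against 50 with vehicle, 11.2-fold lower in the authors’ deposited table (4.59 to 47.7).

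Receptors coupled to G proteins and their regulators were split, 12 above 1 and 9 below in all and 5 and 5 with at least 20 reads. Gpr149, an orphan receptor, had 4890 reads with TGFβ against 131 with vehicle, a ratio of 37.2 in the authors’ deposited table (31.4 to 44.7). The protease-activated receptors F2rl1 and F2rl2 both lay above 1, F2rl1 with 1431 against 60 implied reads with TGFβ against vehicle and a ratio of 23.7 in the authors’ deposited table, and F2rl2 with 37 against 0. Mrgprf, an orphan receptor, had 135 reads with TGFβ against 1099 with vehicle, 8.11-fold lower in the authors’ deposited table (6.803 to 9.81). Rgs5, a G protein regulator known as a pericyte marker, had 0 reads with TGFβ against 64 with vehicle, at least 21.3-fold lower, and the adrenergic receptor Adra1b had 1 read with TGFβ against 42 with vehicle, 28.3-fold lower in the authors’ deposited table (7.14 to 1698). Among intracellular regulators, the 3 MAP kinase phosphatase genes listed lay above 1: Dusp4 had 2186 reads with TGFβ against 312 with vehicle, a ratio of 6.997 in the authors’ deposited table (6.22 to 7.91), Dusp9 had 279 reads with TGFβ against 18 with vehicle, a ratio of 15.1 in the authors’ deposited table (9.63 to 26.5), and Dusp8 had 44 against 8 reads with TGFβ against vehicle. Dock8, an exchange factor for Cdc42, had 10085 reads with TGFβ against 289 with vehicle, a ratio of 34.8 in the authors’ deposited table (31.04 to 39.4).

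Ion channels numbered 7 above 1 and 12 below in all, and 1 and 6 with at least 20 reads, whose median log2 ratio was -5.26. Aqp1, a water channel, had 138 reads with TGFβ against 14400 with vehicle, 104-fold lower in the authors’ deposited table (88.2 to 124). Cacna1g, a low-voltage calcium channel, had 5 reads with TGFβ against 1514 with vehicle, 275-fold lower in the authors’ deposited table (129 to 934), and the potassium channel Kcna4 had 2 reads with TGFβ against 95 with vehicle, 38.2-fold lower in the authors’ deposited table (12.8 to 398). Solute carriers and transport ATPases were 12 above and 17 below in all, and 3 and 9 with at least 20 reads, whose median log2 ratio was -3.13. Slc20a1, a sodium-phosphate importer, had 10835 reads with TGFβ against 1370 with vehicle, a ratio of 7.91 in the authors’ deposited table (7.48 to 8.37), and Slc40a1, the iron exporter ferroportin, had 554 reads with TGFβ against 104 with vehicle, a ratio of 5.31 in the authors’ deposited table (4.31 to 6.63). Slc1a3, a glutamate transporter, had 689 reads with TGFβ against 5734 with vehicle, 8.32-fold lower in the authors’ deposited table (7.69 to 9.02). The remaining lower transporters include 6 listed at day 8 only, among them the calcium exporters Slc24a3 (8.48-fold lower in the authors’ deposited table) and Atp2b4 (13.5-fold) and the serotonin transporter Slc6a4 (27.8-fold), with 257 against 2183, 74 against 1006 and 6 against 180 implied reads with TGFβ against vehicle.

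Aldehyde dehydrogenase and retinoid genes were 2 above 1 and 4 below in all, and 1 and 4 with at least 20 reads. Aldh1a1 and Aldh1a7, neighbours on chromosome 19 that are close copies, had 0 against 49 and 0 against 86 implied reads with TGFβ against vehicle, at least 16.3-fold and 28.7-fold lower. Cyp26b1, which degrades retinoic acid, had 65 reads with TGFβ against 1176 with vehicle, 17.96-fold lower in the authors’ deposited table (14.1 to 23.6), and Aldh3a1 had 65 reads with TGFβ against 1635 with vehicle, 24.97-fold lower in the authors’ deposited table (19.6 to 32.7). Aldh1l1, a folate enzyme, was the one above 1 and had 127 reads with TGFβ against 0 with vehicle, at least 42.3-fold higher. Adh7 and Adh1, adjacent alcohol dehydrogenases that oxidise retinol, were both listed at day 8 only. Adh7 had 1036 reads with TGFβ against 8814 with vehicle, 8.504-fold lower in the authors’ deposited table (7.98 to 9.08), and Adh1 had 4 reads with TGFβ against 186 with vehicle, 41.4-fold lower in the authors’ deposited table (17.9 to 172).

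Detoxification genes were 9 above 1 and 13 below in all, and 3 and 9 with at least 20 reads, whose median log2 ratio was -3.31. Members of these families share near-identical sequence, so their reads may be split between copies. Akr1c14, a hydroxysteroid dehydrogenase, had 422 reads with TGFβ against 3255 with vehicle, 7.71-fold lower in the authors’ deposited table (6.97 to 8.56). The carboxylesterases of 1 cluster on chromosome 8 differed in side: Ces1g had 1506 reads with TGFβ against 121 with vehicle, a ratio of 12.4 in the authors’ deposited table (10.3 to 15.1), while Ces1f had 6 reads with TGFβ against 431 with vehicle, 66.4-fold lower in the authors’ deposited table (32.7 to 197) and Ces1d had 4 reads with TGFβ against 57 with vehicle, 12.8-fold lower in the authors’ deposited table (5.27 to 54.1). In lipid metabolism 4 genes lay above 1 and 5 below in all, and 2 and 5 with at least 20 reads. Acsbg1, an acyl-CoA synthetase, had 886 reads with TGFβ against 5 with vehicle, a ratio of 161 in the authors’ deposited table (75.6 to 547). Ptgis, prostacyclin synthase, had 3 reads with TGFβ against 579 with vehicle, 166-fold lower in the authors’ deposited table (65.7 to 939), and Pltp, a phospholipid transfer protein, had 27 reads with TGFβ against 1979 with vehicle, 71.98-fold lower in the authors’ deposited table (50.2 to 112). Enpp2, the autotaxin that makes lysophosphatidic acid, had 5 reads with TGFβ against 213 with vehicle, 38.8-fold lower in the authors’ deposited table (17.97 to 133), and the lipocalin Apod had 15 reads with TGFβ against 431 with vehicle, 27.8-fold lower in the authors’ deposited table (17.2 to 51.8).

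Of a list of glycolysis and hypoxia genes, the 3 found in the table lay above 1: Vegfa, given above, the hexokinase Hk2, which had 1578 reads with TGFβ against 289 with vehicle, a ratio of 5.45 in the authors’ deposited table (4.81 to 6.21), and the oxygen sensor Egln3, which had 43 reads with TGFβ against 5 with vehicle, a ratio of 7.91 in the authors’ deposited table (3.41 to 27.8) and was listed at day 8 only. Related genes outside the list lay on both sides. Epas1, a hypoxia-inducible factor, had a ratio of 6.23 in the authors’ deposited table. The adenylate kinase Ak4 and Pdk4, a kinase that restrains glucose oxidation, were 12.8-fold and 14.3-fold lower, Pdk4 with 17 against 249 implied reads with TGFβ against vehicle. Developmental transcription factors were split, 7 above 1 and 9 below in all and 4 and 4 with at least 20 reads. Sox9, a regulator of cartilage and progenitor cells, had 2945 reads with TGFβ against 526 with vehicle, a ratio of 5.59 in the authors’ deposited table (5.101 to 6.15). Its partner in cartilage, Sox5, had 26 reads with TGFβ against 3 with vehicle, a ratio of 7.57 in the authors’ deposited table (2.66 to 44.7) and was listed at day 8 only. Lhx1, a LIM homeobox factor, had 798 reads with TGFβ against 112 with vehicle, a ratio of 7.098 in the authors’ deposited table (5.84 to 8.76). Prrx2, a homeobox factor of mesenchyme, had 542 reads with TGFβ against 3884 with vehicle, 7.16-fold lower in the authors’ deposited table (6.55 to 7.85), and Foxd1, a stromal forkhead factor, had 34 reads with TGFβ against 284 with vehicle, 8.25-fold lower in the authors’ deposited table (5.84 to 12.3). The small MAF protein Maff, a partner of AP-1 factors, had 115 reads with TGFβ against 18 with vehicle, a ratio of 6.24 in the authors’ deposited table (3.87 to 11.2), at day 8 only, and was the single listed gene of the immediate-early group.

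Proliferation genes were nearly missing from the table. Of the S phase and mitosis groups 0 genes were listed on either side, and of cell cycle inhibitors the stress-induced sestrin Sesn1 alone, which had 572 reads with TGFβ against 4061 with vehicle, 7.09-fold lower in the authors’ deposited table (6.503 to 7.76). Histone genes had 5 above 1 and 1 below, all with 6 or fewer implied reads, and olfactory receptors 6 and 3. Absence from a table of 998 genes does not show a gene unchanged.

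**Figure D2:**
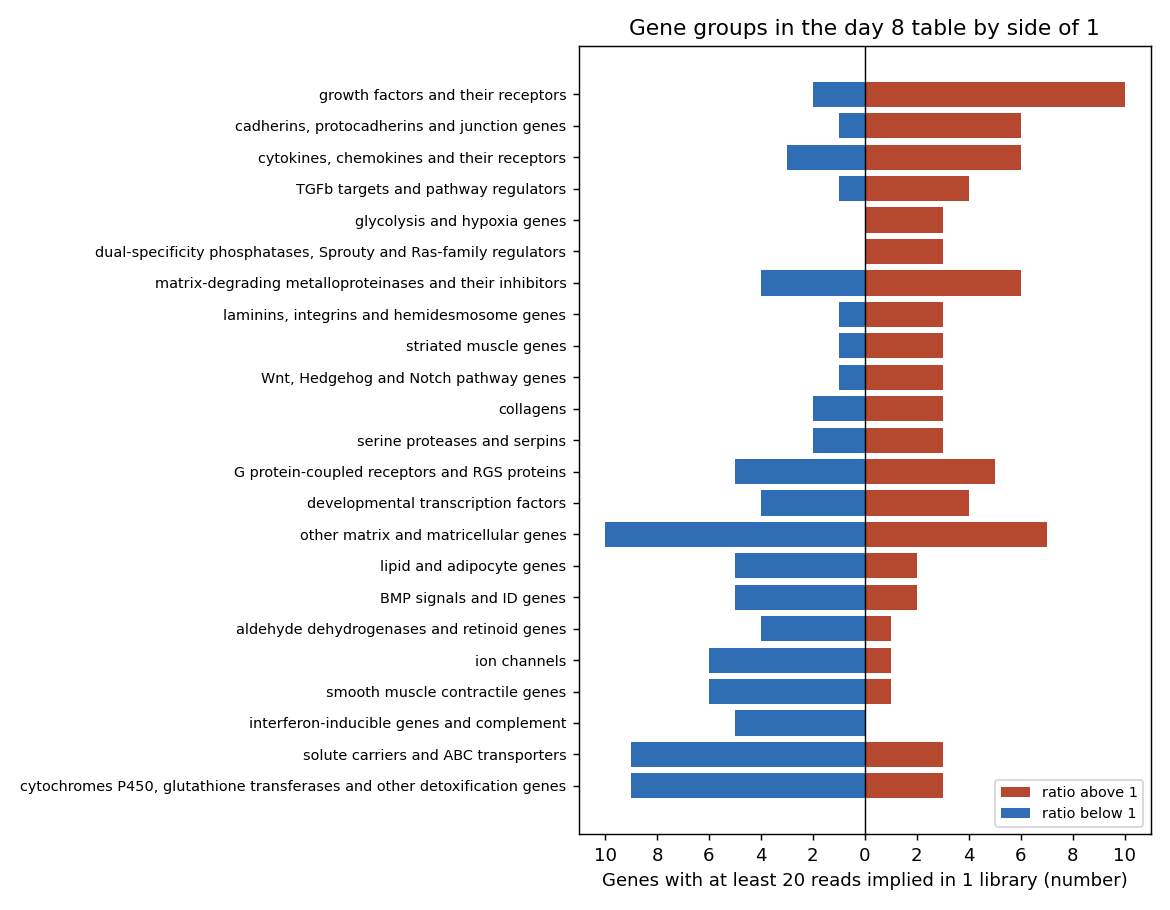
Bars give the number of day 8 genes with at least 20 implied reads in 1 library, above 1 (right, red) and below 1 (left, blue) as the ratio is read, for the gene groups described here that have at least 3 such genes; a gene may stand in several groups. Growth factors, with 10 against 2, lead the upper end, and transporters and detoxification genes, each with 3 against 9, the lower end.

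Other genes with many reads were in none of the lists behind these groups. Above 1, Wdr92, a chaperone-associated WD-repeat protein, had 26410 reads with TGFβ against 3711 with vehicle, a ratio of 7.12 in the authors’ deposited table (6.88 to 7.37), and Atp6v1g1, a subunit of the vacuolar proton pump, had 15622 reads with TGFβ against 2936 with vehicle, a ratio of 5.32 in the authors’ deposited table (5.11 to 5.54). Cp, ceruloplasmin, a copper-carrying ferroxidase, had 7989 reads with TGFβ against 976 with vehicle, a ratio of 8.18 in the authors’ deposited table (7.66 to 8.76) and was listed at day 8 only. Megf10, an engulfment receptor, had 3071 reads with TGFβ against 38 with vehicle, a ratio of 79.8 in the authors’ deposited table (58.7 to 114). Below 1, Thbd, thrombomodulin, had 570 reads with TGFβ against 6227 with vehicle, 10.9-fold lower in the authors’ deposited table (10.02 to 11.9), and Gas1, a membrane protein of growth-arrested cells, had 299 reads with TGFβ against 4015 with vehicle, 13.4-fold lower in the authors’ deposited table (11.9 to 15.2). Pmp22, a tetraspan membrane protein also found in arrested fibroblasts, had 386 reads with TGFβ against 3465 with vehicle, 8.97-fold lower in the authors’ deposited table (8.08 to 9.998) at day 8 only. Nearest to 1 among genes of at least 20 reads stood Pdgfa, Lpin3 and Vtcn1 above it, with ratios of 5.01, 5.02 and 5.04 in the authors’ deposited table, and Tmem184a, Itga10 and Sesn1 below it, 7.05-fold, 7.09-fold and 7.09-fold lower.

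Markers of other cell types were few. Of 4 listed leukocyte markers 3 lay above 1, with Laptm5 at 28 against 0 implied reads with TGFβ against vehicle, Cd53 at 8 against 0 and Fcgr3 at 2 against 0, and Itgam below 1 at 0 against 7. Endothelial markers were 4 above (Cdh5, Tek, Kdr and Sox18, with 2 to 32 reads against 0) and 2 below (Ramp2 at 3 against 135 and Emcn at 0 against 4). Epithelium had Cldn4 alone at 2 against 0, and adipocytes Fabp4 at 31 against 5 and Adipoq at 2 against 0. Defining markers such as Ptprc, Pecam1, Epcam and Krt8 were not in the table, and a table of ratios gives no level for them. Of the fibroblast markers Fap alone was listed, at 13 against 0, so the table cannot check the fibroblast label. The part of other cell types in these ratios was not tested.

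Absence from the earlier tables followed the number of reads. In neither the day 2 nor the day 4 table were 220 genes above 1 (44.1%) and 224 below 1 (44.9%). The share was 71.3% of the 286 genes with under 5 implied reads, 51.7% of the 290 with 5 to 19, 28.6% of the 161 with 20 to 99, 18.4% of the 152 with 100 to under 1000, and 14.7% of the 109 with 1000 or more. With at least 20 reads it was 30 of the 194 genes above 1 (15.5%) and 60 of the 228 below 1 (26.3%). Every table stops at its own end (3 above 1 at day 2 and 5 at days 4 and 8, 0.143 below 1 at each day), so a gene listed at day 8 only may have differed at an earlier day by less than that.

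**Figure D3:**
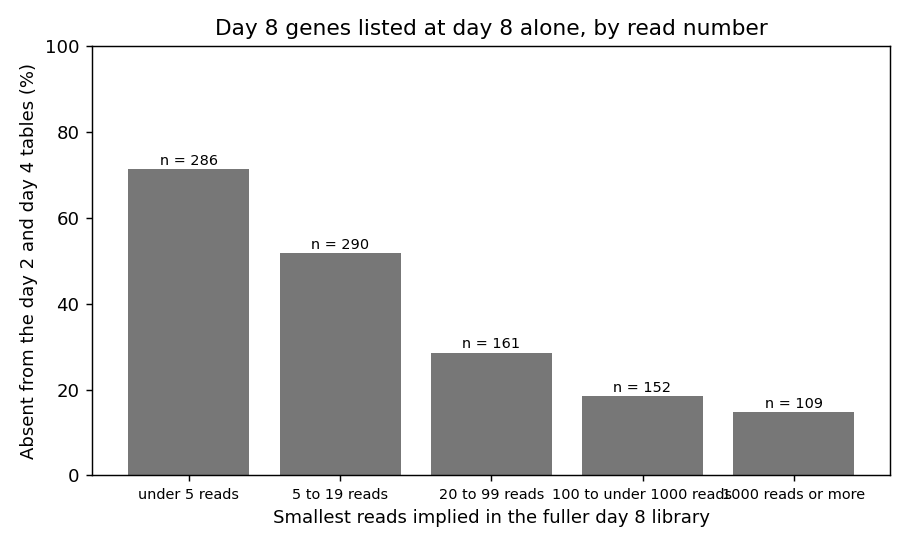
Bars give the percentage of day 8 genes that are in neither the day 2 nor the day 4 table, by the smallest reads implied in the fuller day 8 library, with the number of genes above each bar. The share is 71.3% under 5 reads and 14.7% at 1000 reads or more.

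Among the 30 day 8 genes above 1 with at least 20 reads and no earlier listing, the most abundant were Spp1, Dmp1, Cp, Fam20a and Lef1, whose values are given above, with the predicted gene Gm11517, which had 1410 reads with TGFβ against 27 with vehicle, a ratio of 51.3 in the authors’ deposited table (35.7 to 79.5) and overlaps Cbx1. Further down, Tgm2, the transglutaminase that crosslinks matrix, had 161 reads with TGFβ against 14 with vehicle, a ratio of 11.1 in the authors’ deposited table (6.66 to 21.5). Vamp5, a vesicle protein, had 501 reads with TGFβ against 75 with vehicle, a ratio of 6.64 in the authors’ deposited table (5.23 to 8.63), and the kinesin Kif21b had 276 reads with TGFβ against 35 with vehicle, a ratio of 7.79 in the authors’ deposited table (5.53 to 11.6). Among the 60 below 1, Adh7, Kitl, Pmp22, Mmp16, Slc24a3 and Gpc6 led by reads, followed by Id1 and Id3. The ependymin-related Epdr1 had 189 reads with TGFβ against 1471 with vehicle, 7.77-fold lower in the authors’ deposited table (6.68 to 9.104), and the calcium- and membrane-binding annexin Anxa6 had 66 reads with TGFβ against 973 with vehicle, 14.6-fold lower in the authors’ deposited table (11.5 to 19.2). Ahrr, a repressor of the aryl hydrocarbon receptor, had 41 reads with TGFβ against 378 with vehicle, 9.12-fold lower in the authors’ deposited table (6.67 to 13.1), and the cytokine signalling inhibitor Cish had 24 reads with TGFβ against 205 with vehicle, 8.39-fold lower in the authors’ deposited table (5.58 to 13.6). The keratin Krt12, a corneal intermediate filament, had 29 reads with TGFβ against 256 with vehicle, 8.69-fold lower in the authors’ deposited table (5.9998 to 13.4).

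Genes shared with the earlier tables kept their side almost throughout once low reads were set aside. The day 8 table shared 312 genes with the day 2 table (31.3% of each), 293 on the same side of 1, and 478 with the day 4 table (47.9% of each), 463 on the same side. With at least 20 reads at both days these were 166 shared with day 2 (39.3% of the day 8 genes of that depth and 56.1% of the day 2 genes), 165 on the same side, and 259 shared with day 4 (61.4% and 65.9%), 258 on the same side. All 139 genes listed with at least 20 reads at the 3 days were on 1 side throughout, 65 above 1 and 74 below. The 3 days have separate libraries and share none, but each table was cut by its own ratios, so these shares describe the tables and are not a test.

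The 2 exceptions were Tmem158 and Nkd2. Tmem158, a membrane protein first known from Ras-induced senescence, had 113 against 9716 implied reads with TGFβ against vehicle at day 8 and was 85.6-fold lower in the authors’ deposited table (71.4 to 104), whereas at day 4 it had 11267 against 150 and a ratio of 74.9. It was not in the day 2 table. Nkd2 had 61 against 6 at day 8, a ratio of 9.46 in the authors’ deposited table (4.41 to 28.8), and 5 against 54 at day 2, where it was 9.91-fold lower.

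Between days 4 and 8 the ratios moved both ways. Of the 259 genes with at least 20 reads at both days, 69 moved by more than 2-fold, 29 up and 40 down, and the median absolute log2 difference was 0.53. Over the 136 genes above 1 at day 8 with at least 20 reads at both days, the median log2 difference, day 8 minus day 4, was -0.16, and 50 lay farther from 1 at day 8. Over the 123 below 1 at day 8 it was -0.23, and 73 lay farther from 1. Ratios are not scaled for depth, so a depth difference within a day is part of these shifts. In the authors’ deposited tables Deptor, an inhibitor of mTOR, was lower by 47.9-fold at day 8 and by 8.38-fold at day 4, with 23 against 1125 and 53 against 448 implied reads with TGFβ against vehicle. For Aqp1 the authors’ deposited tables gave 104-fold lower at day 8 and 31.4-fold at day 4. Hsd11b1, which activates glucocorticoids, had a ratio of 47.4 at day 8 and 6.14 at day 4 in the authors’ deposited tables, from 118 against 2 implied reads with TGFβ against vehicle at day 8. Tnnt2 went the other way, with 152 at day 8 and 528 at day 4 in the authors’ deposited tables, where the day 4 vehicle library had the form of 1 read.

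**Figure D4:**
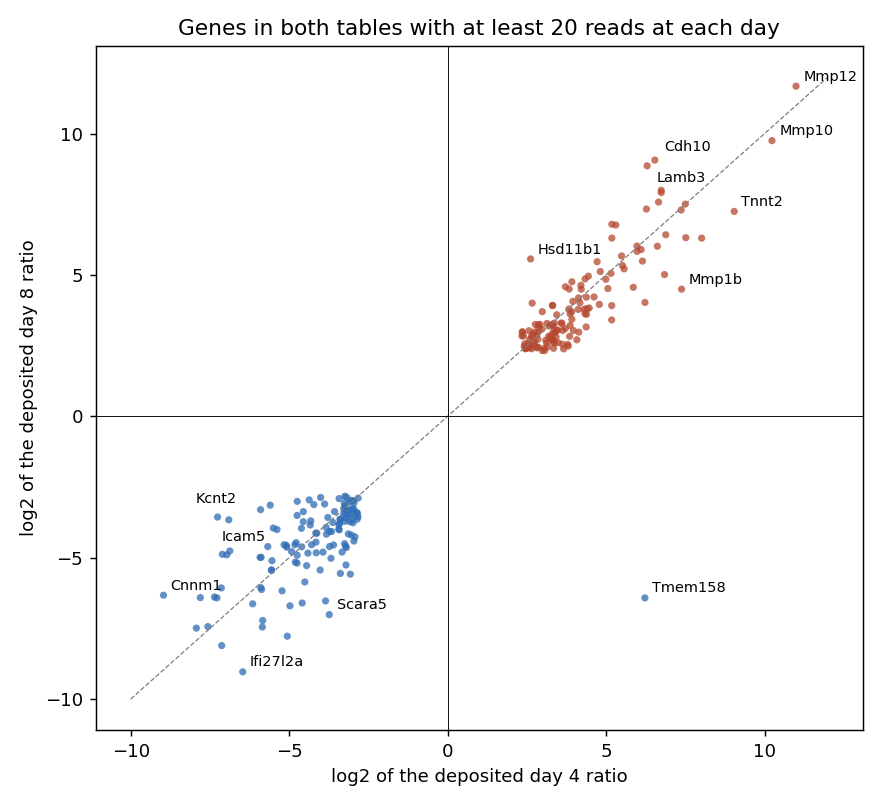
Each point is 1 of the 259 genes with at least 20 implied reads in both the day 4 table (x axis, log2 of the deposited ratio) and the day 8 table (y axis, log2), coloured by side at day 8, with the dashed line marking equal ratios. All but Tmem158, alone at the lower right, lie on the same side at both days.

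The miRNA libraries of day 8 name their treatment, and miRNAs that lie inside listed genes on the same strand give labelled measurements to set beside the unlabelled ratios. The mature sequences of the miRNAs concerned are shown 5′ to 3′ with the seed, bases 2 to 8, in capitals (RefSeq, GRCm38.p6).
miR-455-3p: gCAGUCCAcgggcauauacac
miR-455-5p: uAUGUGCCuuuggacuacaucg
miR-351-5p: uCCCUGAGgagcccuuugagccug
miR-322-3p: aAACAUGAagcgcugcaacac
miR-322-5p: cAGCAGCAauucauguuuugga
miR-503-5p: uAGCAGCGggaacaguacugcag
miR-1224-5p: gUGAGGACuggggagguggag
miR-344-3p: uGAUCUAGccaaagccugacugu
No 2 of these share a whole seed, and miR-322-5p and miR-503-5p, both of the family of miR-15 and miR-16, share all seed bases but the last.

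The day 8 miRNA counts summed to 1387785 reads with TGFβ and 414943 with vehicle, and miRNA ratios were scaled to these totals. Of 14 pairs of a miRNA with at least 20 reads and its host gene, in 6 hosts, 13 lay on the same side of 1. In Col27a1 miR-455-3p had 1920 reads with TGFβ against 80 with vehicle (ratio 7.18, 5.74 to 9.09), and miR-455-5p had 136 against 3 (13.6, 4.54 to 66.5), beside the host ratio of 7.45 in the authors’ deposited table. Below 1, C430049B03Rik (GRCm38 chrX:53053112-53057190), the host transcript of miR-322, miR-351 and miR-503, had 23 reads with TGFβ against 379 with vehicle, 16.1-fold lower in the authors’ deposited table (10.8 to 26.3). All 6 of its mature miRNAs lay below 1, among them miR-351-5p with 1378 against 1743 (ratio 0.236, 0.220 to 0.254), miR-322-3p with 112 against 272 (0.123, 0.0979 to 0.154) and miR-503-5p with 24 against 25 (0.287, 0.157 to 0.524). miR-1224-5p had 0 reads with TGFβ against 142 with vehicle (upper end of the interval 0.00787), and its host Vwa5b2, listed at day 8 only, had 9 reads with TGFβ against 146 with vehicle, 15.4-fold lower in the authors’ deposited table (8.31 to 36.2).

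The exception was miR-344-3p, with 64 against 15 reads and a ratio of 1.28 whose interval, 0.719 to 2.41, held 1. Its host A230057D06Rik had 3 reads with TGFβ against 86 with vehicle, 24.7-fold lower in the authors’ deposited table (9.49 to 142), and 2 relatives in the same host, miR-344b-3p and miR-344d-3p, lay below 1 at 0.349 (0.177 to 0.695) and 0.513 (0.255 to 1.07), the second with an interval that held 1. The other 2 hosts, AI854517 and Rnf144a, had 2 and 6 implied reads, and miR-9-5p of AI854517 is also made from other precursors. With at least 100 miRNA reads 7 of 7 pairs, in 4 hosts, lay on 1 side. The pairs share hosts and libraries, so they are not independent, and the direction of the mRNA table was not tested by them.

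**Figure D5:**
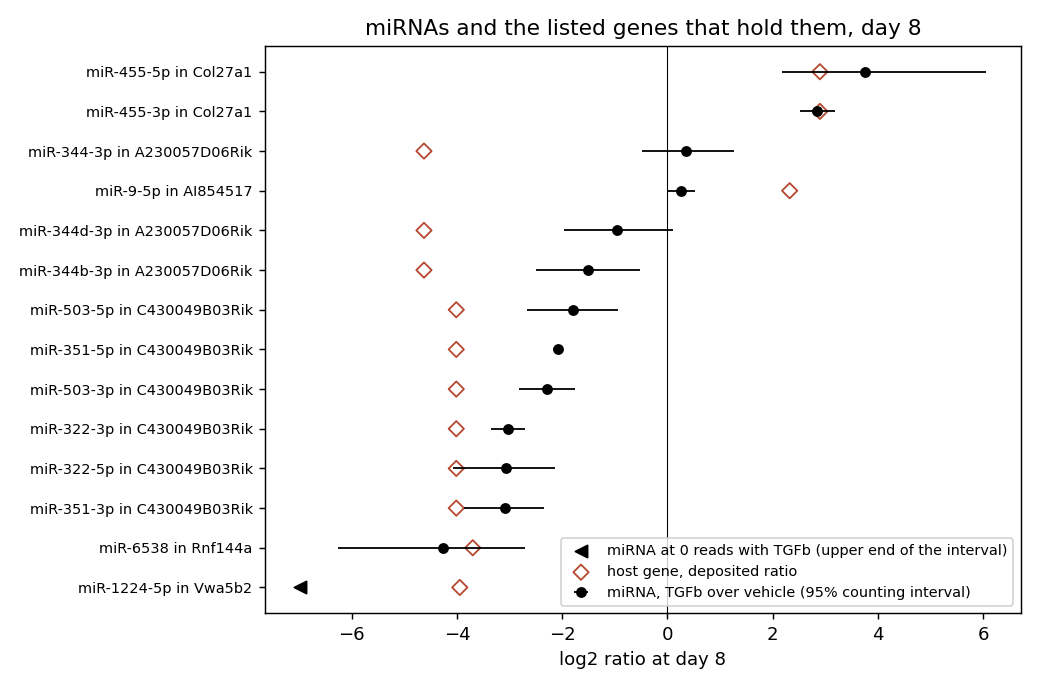
Filled circles give the log2 ratio of miRNA reads at day 8, TGFβ over vehicle scaled to library totals, with exact 95% counting intervals, and open diamonds the log2 of the deposited ratio of the host gene, read as TGFβ over vehicle. The triangle marks miR-1224-5p, which had 0 reads with TGFβ, at the upper end of its interval; 13 of the 14 miRNAs lie on their host’s side of 0.

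Genes of the table with at least 20 reads also lay side by side on the genome. Within 100 kb of each other 72 of them formed 34 groups, 28 of which were on 1 side of 1. The metalloproteinases Mmp13, Mmp12 and Mmp1b (GRCm38 chr9:7272514-7388026) and the trio of Tnni1, Tnnt2 and Pkp1 were the 2 groups of 3 genes on 1 side, out of 4 groups of 3 or more. Of the pairs below 1, Nov lies beside Enpp2. Of the pairs above 1, Lamb3 lies beside Hsd11b1. Neighbours that overlap can share reads, so a common side need not be 2 measurements.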

How the data were processed

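The authors deposited 3 mRNA tables, 1 per day, each with a gene symbol and a ratio (fold change) between the TGFβ and vehicle libraries, with no per-sample values and no direction in the header. The miRNA table deposited by the authors holds whole-number counts per mature miRNA, with no normalization. The build mm10 and edgeR 3.9 appear, without a stated role, per the submitters’ processing notes. The aligner is not given in the sources used here, nor is the counter. Per the labels’ protocols each condition had 1 sample. mRNA library totals were not used, so depth is unknown and remains within each ratio.

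Each ratio was written in lowest terms as 2 odd whole numbers, and the smallest reads (pseudocount 0.5) and exact conditional binomial 95% intervals were computed from them (Python 3.11.15, pandas 2.3.3, scipy 1.17.1, matplotlib 3.10.9). The step was checked on simulated counts. Symbols were matched to RefSeq as given (899), as synonyms (93) or not at all (6). Genes were counted in 42 lists, which hold 479 of the 998 genes and 205 of the 422 with at least 20 reads. miRNA ratios were scaled by library totals, or by trimmed mean of M-values in edgeR 4.0.16 (R 4.3.3) as an alternative.

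The members, the lists and the rule for named genes were chosen with earlier results of these data known. Named genes were listed members of the lists (up to 8 per list and side, by reads), the 20 largest folds and the 20 with most reads per side, the 15 largest folds listed at day 8 only, the 10 largest moves from day 4 each way, genes that changed side, the 3 nearest to 1 and miRNA hosts. Ahrr, Ak4, Anxa6, C1rb, Cish, Clec11a, Dchs1, Dixdc1, Dspp, Epas1, Epdr1, Fas, Fat4, Flt3l, Gbp3, Gbp4, Gbp6, Gbp8, Hc, Igf1, Igtp, Mfap4, Mx2, Neurl1b, Oas1c, Oas2, Oasl2, Omd, Pdk4, Ppl and Relt were outside it and named once their values had been seen. The alternatives were other read minimums (10 and 50), leaving out forms of 0 reads, pseudocounts of 2 and 5, synonyms resolved, and miRNA scaling. A gene and a gene group are not reported here.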

Additional observations from a re-analysis of the deposited data

Results flagged for a closer look

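A pair of genes lay on opposite sides of 1 at day 8 and at an earlier day with at least 20 implied reads at both, and neither difference was tested, since each day has 1 library per group. Tmem158 had a ratio of 0.0117 at day 8 and 74.9 at day 4 in the authors’ deposited tables, from 113 against 9716 and 11267 against 150 implied reads with TGFβ against vehicle. Nkd2 had a ratio of 9.46 at day 8 and 0.101 at day 2 in the authors’ deposited tables, from 61 against 6 and 5 against 54 implied reads. The other 258 genes shared with day 4 and 165 shared with day 2 at that depth were on 1 side.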

How the results depend on the processing

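The number of genes on each side followed the minimum of implied reads. At 10, 20 and 50 reads 227, 194 and 157 genes lay above 1 and 299, 228 and 171 below, against 499 each with no minimum, and without forms of 0 reads 197 lay above and 236 below. Genes in neither earlier table were 40, 30 and 21 above 1 and 99, 60 and 40 below at these minimums, against 220 and 224. Genes on the same side at day 2 were 185, 165 and 123, against 293, with 1 on the other side at each minimum, against 19. At day 4 they were 307, 258 and 212, against 463, with 1 on the other side at each minimum, against 15. These counts move because fewer genes enter. Host pairs on the same side were 7 at a minimum of 100 miRNA reads, against 13 at 20, and 13 under the other scaling. Resolving synonyms changed none of these counts.

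Of the 354 named ratios all stayed within their counting interval at a pseudocount of 2, and 41 left it at 5, each keeping its side of 1. The larger side of a list changed for 1 list at 10 reads (G protein-coupled receptors and RGS proteins), for 0 at 20 and for 2 at 50 (unnamed genes and endothelial markers). No paired analysis was possible because each group has 1 library, and leaving out a library was not possible. The deposited mRNA tables give no depth, no replicate spread and no direction, which limits every value.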
